A study of Mus musculus with 15 samples.

Results

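Mitochondrial complex I, the NADH:ubiquinone oxidoreductase, was followed through the transcripts of its nuclear subunits in the mouse thoracic aorta. The set was defined by name: every row of the gene count table whose symbol is one of 36 listed subunits of the Ndufa, Ndufab, Ndufb, Ndufc, Ndufs and Ndufv families, with assembly factors and pseudogenes left out. It found 36 genes in 37 of the 37681 rows. The additional row is a second Ndufb8 entry with 0 to 2 counts per library, which failed the filter on low counts, whereas each of the 36 genes passed it and was among the 15134 genes tested.

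RNA came from 15 adult wild-type C57BL/6 males aged 10 to 12 weeks, on regular chow and a 12 h light and dark cycle. Each of the 3 groups held 5 animals, and each animal gave 1 polyadenylated RNA library. The controls received the vehicle PEG-400, a polyethylene glycol. The other animals received celecoxib at 30 mg/kg or rofecoxib at 10 mg/kg, both selective inhibitors of cyclooxygenase-2, the inducible enzyme of prostanoid synthesis. All doses were given once by gavage in 100 uL, and tissue was taken 6 h later, at Zeitgeber time 11. The comparisons ask whether either compound was accompanied by other levels of these transcripts than vehicle, and whether the compounds differed.

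Complex I takes electrons from NADH, passes them along a flavin and a chain of iron-sulfur clusters to ubiquinone, and pumps protons across the inner mitochondrial membrane. It is L-shaped: a matrix arm holds the flavin, the clusters and the quinone site, and a membrane arm holds the proton pumps, whose core subunits are encoded in mitochondrial DNA. Around the catalytic core sit many accessory subunits, which are needed for assembly and stability. The wall of the aorta is mostly smooth muscle, and the brown-like fat around the thoracic aorta is rich in mitochondria.

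Library totals of the deposited counts were nearly equal, from 30937046 to 30967115 (0.0971% of their mean apart), and 19158 to 19746 genes were detected. The complex I genes took 0.173% to 0.288% of the counts. All 37 mitochondrial rows held 0 counts, so the 7 mitochondrially encoded subunits were not measured. Smooth muscle markers were abundant, with 10 of 10 detected in every library and a summed level of 41020 to 57465 CPM (counts scaled to a common library size). The 26 adipocyte markers were detected in every library as well, at 2501 to 9265 CPM in sum. Cardiac markers summed to 82.4 to 153 CPM and skeletal muscle markers to 9.16 to 15.6 CPM. The neuron and Schwann cell markers summed to 24.9 to 766 CPM and varied widely within each group.

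By place in the complex, 15 of the genes encode matrix arm subunits, 9 proximal and 10 distal membrane arm subunits. Ndufab1 serves in both arms, and Ndufa4 was named as a complex I subunit but has been reassigned to complex IV. The core is represented by 6 genes, Ndufv1, Ndufv2, Ndufs1, Ndufs3, Ndufs7 and Ndufs8, and the other 30 are accessory. The genes lie on 15 chromosomes, and Ndufa1 and Ndufb11 are X-linked.

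The letters around the start sites of these genes are shown first, and their bearing on the levels was not tested. RefSeq promoter windows (GRCm38.p6, 250 bases before to 50 bases after the start) were found for 33 of the 36 genes, 35 windows in all, and Ndufa2, Ndufb9 and Ndufs1 were not matched. In 7 windows the letters AAGATGGC, a core of the YY1 motif, occurred, which is 20% of the 35 windows, against 2.75% of all 32851 windows and 3.83% of the 13113 windows of tested genes. In each of the 7 the ATG within these letters is the annotated start codon. The stretches are printed 5′ to 3′ on the gene's strand, with the matched letters in capitals. They were picked for holding these letters, so the likeness within the capitals comes from the search itself.
Ndufa3 (chr7:3617387-3617410, plus strand): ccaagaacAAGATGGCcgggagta
Ndufa9 (chr6:126849100-126849123, minus strand): tgtgggagAAGATGGCggccgccg
Ndufb8 (chr19:44555393-44555412, minus strand): agaaggtgAAGATGGCtgcc
Ndufc1 (chr3:51408918-51408941, minus strand): tgcggaacAAGATGGCgccgtccg
Ndufs4 (chr13:114388045-114388067, minus strand): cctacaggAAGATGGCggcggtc
Ndufs6 (chr13:73328434-73328457, minus strand): tcaccggcAAGATGGCggcggtgc
Ndufs7 (chr10:80249465-80249488, plus strand): ccgaggccAAGATGGCggcgctgg
These 7 genes stood between 0.744 and 0.843 of vehicle in the celecoxib group and between 0.759 and 0.845 in the rofecoxib group. Whether they differed from the other members was not tested. Motifs were searched on both strands by their letters alone. A match is a description of the sequence, and a missing match says only that the letters are not in the window.

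The other 5 motifs searched, named for factors of mitochondrial gene transcription, gave mixed shares. The NRF1 letters GCATGCGC were in 3 of the 35 windows (8.57%, against 2.71% of all windows and 4.69% of those of tested genes), in Ndufa6, Ndufa8 and Ndufa11. The cyclic AMP response element TGACGTCA was also in 3 (8.57%, against 1.79% and 2.92%), in Ndufa10, Ndufa11 and Ndufb2. The ETS letters CCGGAAG of GABPA were in 4 windows (11.4%, against 8.86% and 15.2%) and the SP1 letters GGGGCGGGG in 5 (14.3%, against 11.4% and 20.4%). The ESRRA letters TCAAGGTCA were in 0 of 35, against 0.423% of all windows and 0.29% of those of tested genes. In these windows no match of one motif overlapped a match of another, and in Ndufa11 the NRF1 letters overlap themselves on the opposite strand. The 100 bases before the start are printed for Ndufa10, which had the lowest ratio to vehicle, Ndufb3, whose groups did not overlap, the core gene Ndufs3, and Ndufa11 and Ndufb7, whose ratios were among those nearest to 1, with the searched letters in capitals.
Ndufa10 (chr1:92473759-92473858, minus strand): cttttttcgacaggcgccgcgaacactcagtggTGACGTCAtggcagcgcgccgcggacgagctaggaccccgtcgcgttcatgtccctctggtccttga
Ndufb3 (chr1:58586297-58586396, plus strand): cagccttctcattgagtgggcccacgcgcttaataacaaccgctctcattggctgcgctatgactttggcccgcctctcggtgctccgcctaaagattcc
Ndufs3 (chr2:90904722-90904821, minus strand): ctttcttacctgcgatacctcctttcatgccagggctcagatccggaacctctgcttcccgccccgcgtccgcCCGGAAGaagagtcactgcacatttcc
Ndufa11 (chr17:56717662-56717761, plus strand): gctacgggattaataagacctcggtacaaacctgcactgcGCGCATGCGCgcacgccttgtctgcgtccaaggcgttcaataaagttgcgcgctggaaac
Ndufb7 (chr8:83566658-83566757, plus strand): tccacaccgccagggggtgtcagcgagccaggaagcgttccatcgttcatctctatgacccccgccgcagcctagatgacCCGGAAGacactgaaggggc
The stretch of Ndufa10 holds the response element and that of Ndufa11 the NRF1 letters read on both strands. Those of Ndufs3 and Ndufb7 hold the ETS letters, and that of Ndufb3 holds none of the 6.

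Celecoxib was first set against vehicle. Each of the 36 complex I genes had a fitted level under vehicle, without any single gene passing the threshold over all genes, and the adipocyte markers stood lower too, at a median ratio of 0.529. With the mean of those markers as a covariate the median log2 fold change of the 36 was -0.02 in place of -0.27. Without it all 36 fitted log2 fold changes were negative, where 48.6% of the 15134 genes tested were. Their median was -0.27, a ratio of 0.828, beside a median of 0.0051 over all genes, and they ran from 0.727 of vehicle for Ndufa10 to 0.964 for Ndufb7. Of the 36 genes 26 stood lower at an unadjusted p under 0.05, beside 7.18% of all genes in that direction, and 0 stood higher, beside 5.35%. The 26 became 0 with the adipocyte covariate.
After adjustment over all genes edgeR's quasi-likelihood test called 0 of the 36, as it did over the whole table (0%), and the smallest adjusted p of a complex I gene was 0.269. DESeq2 called 1 of the 36, Ndufb3, beside 129 of the 12782 genes it adjusted, and limma-voom called 0 of the 36. Leaving out celecoxib 2, celecoxib 5 or vehicle 5 brought the 26 to 13, so that count depends on single libraries. In those fits 5.39%, 6.69% and 4.57% of all genes were lower at that threshold, and 36, 35 and 35 of the 36 were negative.

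Rofecoxib was then set against the same 5 vehicle libraries, which both comparisons share, so the pair of results is given side by side and not as a repeat. All 36 log2 fold changes were again negative (50.3% of all genes were), with a median of -0.28, a ratio of 0.823, beside -0.00067 over all genes. The genes ran from 0.727 of vehicle for Ndufa10 to 0.927 for Ndufa11. At an unadjusted p under 0.05, 30 of 36 stood lower, beside 3.71% of all genes, and 0 higher, beside 1.47%. Adjusted over all genes edgeR's quasi-likelihood test called 0 of 36 and 0% of the table, with a smallest adjusted p of 0.896, and DESeq2 and limma-voom called 0 of 36. Without vehicle 5 the count of 30 was 18, beside 1.91% of all genes. With the adipocyte covariate it was 12 and the median -0.12, and the adipocyte markers themselves had a median ratio of 0.694.

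The separation of single libraries differed in extent. Under celecoxib 1 gene, Ndufb3, had its 5 libraries all below the 5 of vehicle, beside 0.74% of all genes, and 0 had them all above, beside 0.555%. All 5 lay below the vehicle median for 21 genes, beside 10.5% of all genes. Under rofecoxib 9 genes did not overlap with vehicle, beside 0.72% of all genes: Ndufa3, Ndufa4, Ndufa5, Ndufa12, Ndufb2, Ndufb3, Ndufb11, Ndufc2 and Ndufv2. The opposite, all rofecoxib libraries above vehicle, was seen for 0 of the 36 and 0.436% of all genes. In that group 35 genes had all 5 libraries below the vehicle median, beside 11.4% of all genes, and Ndufa11 had 4. The 1 gene of the celecoxib comparison became 3 without vehicle 2 and 5 without celecoxib 4. The 9 of the rofecoxib comparison became 15 without vehicle 3, 16 without vehicle 2 and 19 without rofecoxib 1. Such a count drops a library from the same scaled values, so it can only stay or rise. The share of all genes was not computed for these smaller groups.

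**Figure D1:**
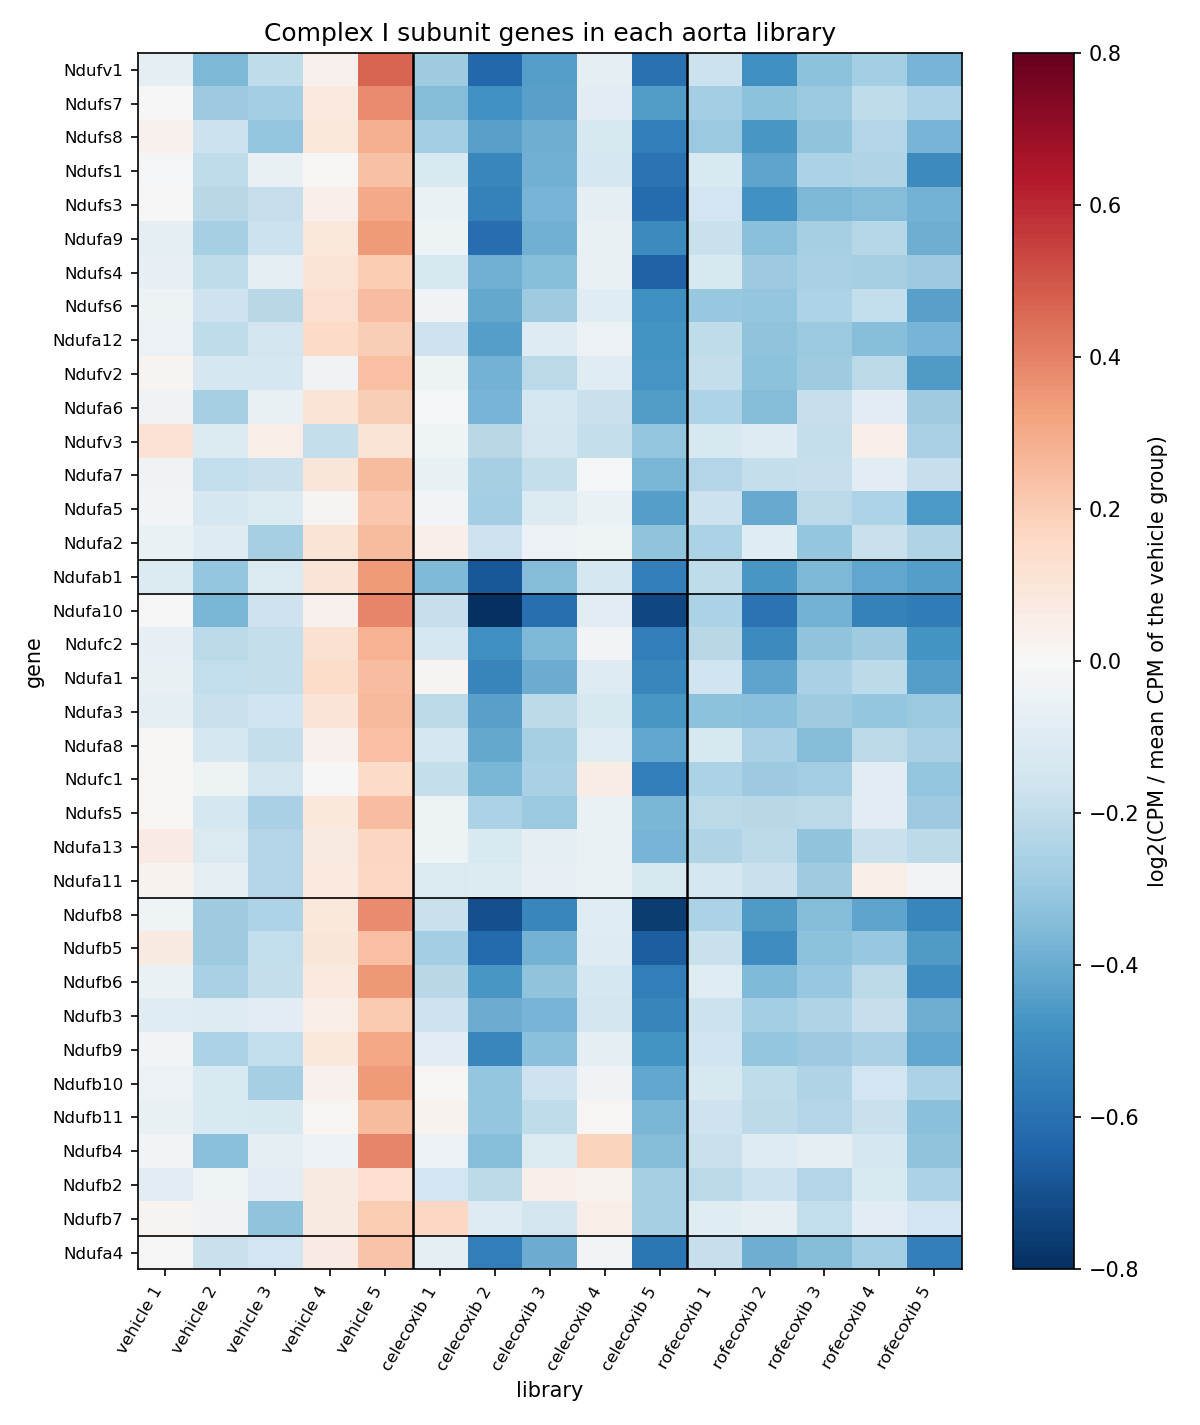
Rows are the 36 complex I genes by place in the complex (matrix arm, Ndufab1, proximal and distal membrane arm, Ndufa4) and columns the 15 libraries; colour is log2 of CPM over the vehicle mean, red above and blue below. Vehicle 5 is the reddest column, the highest of the 15 for 35 genes, and celecoxib 5 the bluest, the lowest for 26.

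**Figure D2:**
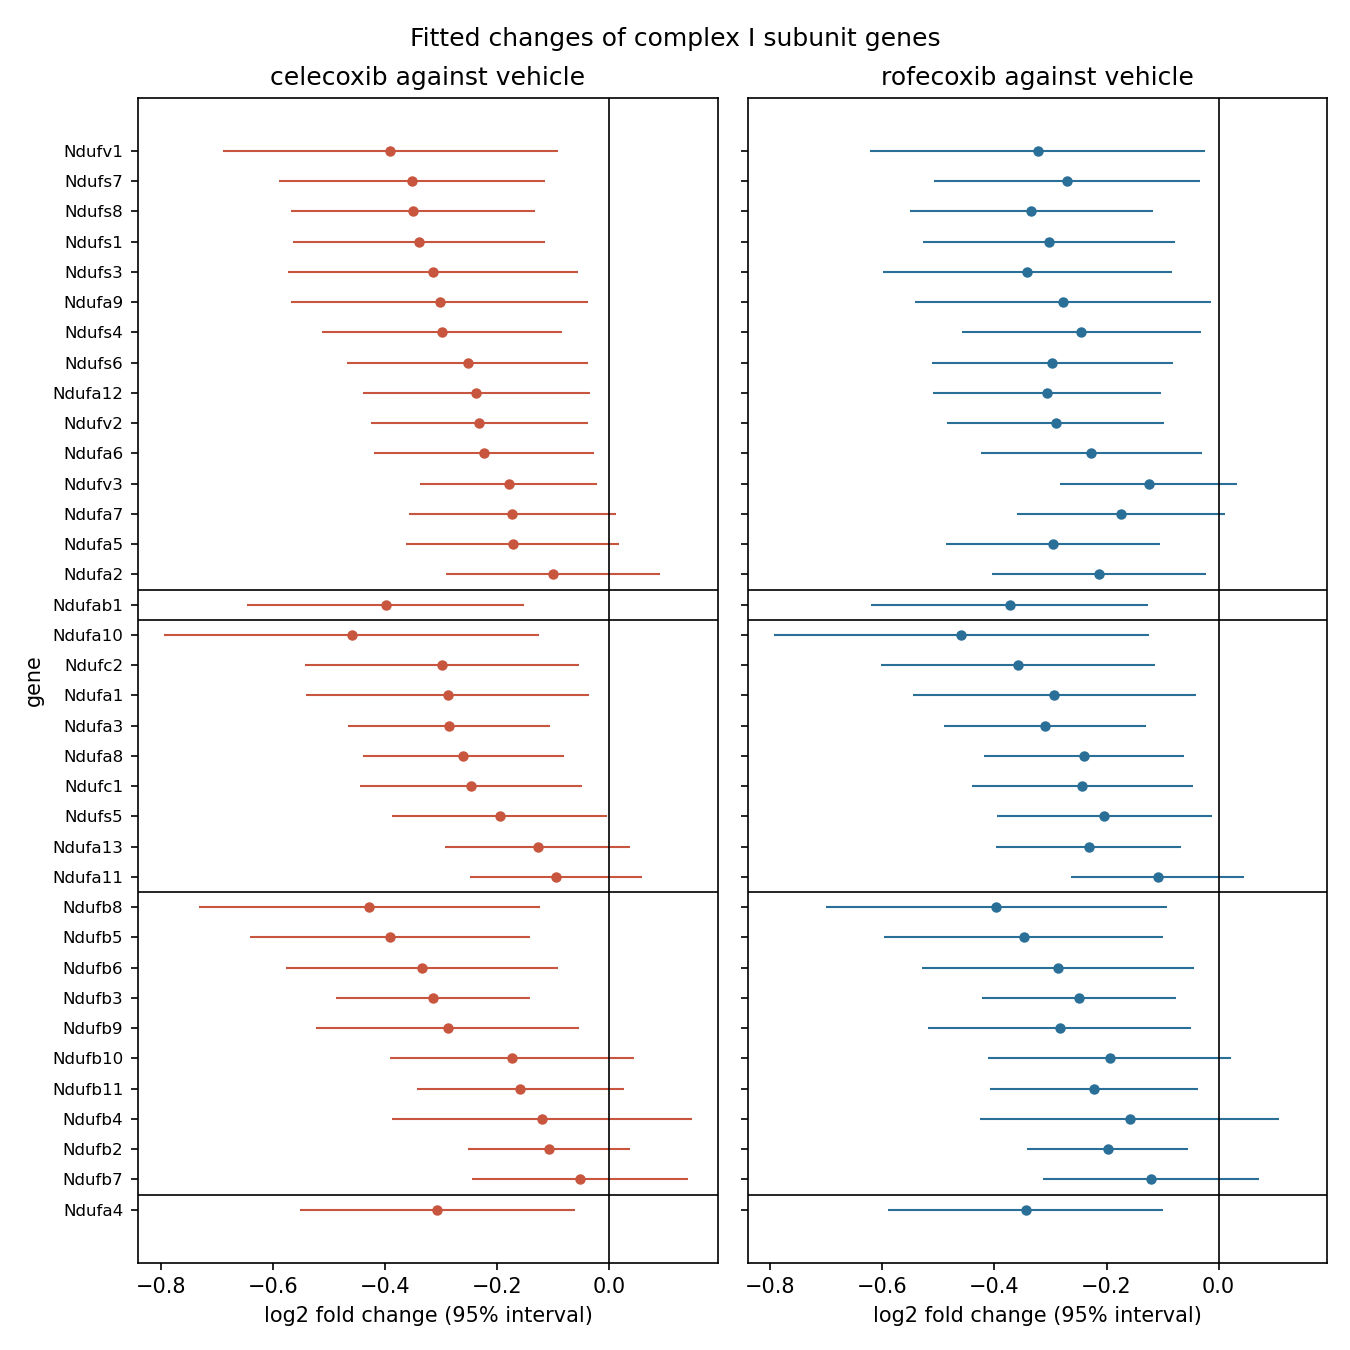
Points are fitted log2 fold changes against vehicle and bars their 95% intervals for the 36 genes, celecoxib on the left and rofecoxib on the right. Every point lies left of 0, and the interval leaves out 0 for 26 genes under celecoxib and 30 under rofecoxib.

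The electron entry site was examined first. Ndufv1 (chr19:4007295-4013008, coordinates here and below as deposited on mm9) binds NADH and the flavin. It stood at 125, 102, 114, 134 and 181 CPM in vehicle 1 to 5. The celecoxib libraries held 108, 84.8, 96.8, 125 and 86.7 CPM and the rofecoxib libraries 116, 93.3, 105, 109 and 102 CPM. Vehicle 5 was far above the others, and both treated groups overlapped with the vehicle range. Means were 131 ± 30.3 CPM in vehicle, 100.2 ± 16.6 in celecoxib and 105 ± 8.55 in rofecoxib (SD, n = 5 each, as in all such values). The log2 fold change was -0.39 ± 0.140 (SE, adjusted p = 0.302) for celecoxib and -0.32 ± 0.140 (adjusted p = 0.913) for rofecoxib.

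Ndufv2 (chr17:66427933-66451101) carries an iron-sulfur cluster next to Ndufv1. Its vehicle libraries held 97.2, 87.4, 87.03, 94.05 and 113 CPM. Under celecoxib the values were 93.2, 73.6, 82.5, 89.6 and 68.9 CPM, and under rofecoxib 84.02, 76.2, 78.8, 82.3 and 70 CPM. Celecoxib 1 and 4 reached into the vehicle range, whereas the highest rofecoxib library stayed under the lowest of vehicle. The log2 fold changes were -0.23 ± 0.0906 (adjusted p = 0.330) and -0.29 ± 0.0906 (adjusted p = 0.896).

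Ndufs1 (chr1:63189968-63223598), the largest subunit of the matrix arm, holds several iron-sulfur clusters. It had 114, 100.1, 111, 116 and 136 CPM in vehicle, 106, 80.4, 88.4, 105 and 76.7 CPM in celecoxib and 106, 86.3, 96.9, 97.7 and 81.03 CPM in rofecoxib. Within celecoxib, libraries 2, 3 and 5 were low, while 1 and 4 lay in the vehicle range. The log2 fold change was -0.34 ± 0.105 for celecoxib (adjusted p = 0.275) and -0.30 ± 0.105 for rofecoxib (adjusted p = 0.896). Ndufs1 spans the place of Eef1b2, a translation elongation factor gene with more counts, and whether reads were assigned by strand is not given in the sources used here.

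The quinone-reducing part holds the other core genes. Ndufs3 (chr2:90734589-90745186) is a core subunit of its base. It stood at 65.05, 56.04, 57.3, 67.1 and 80.6 CPM in vehicle, 62.9, 44.8, 50.3, 61.7 and 42.5 CPM in celecoxib and 58.5, 46.6, 50.9, 51.3 and 50.1 CPM in rofecoxib. The celecoxib values split, with 1 and 4 inside the vehicle range and 2, 3 and 5 under it. Its log2 fold changes were -0.31 ± 0.121 (adjusted p = 0.322) and -0.34 ± 0.121 (adjusted p = 0.896).

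Ndufs7 (chr10:79711664-79719741) carries the last iron-sulfur cluster before ubiquinone. Vehicle held 66.2, 54.2, 55.03, 70.05 and 86.2 CPM, celecoxib 52.2, 47.4, 49.2, 62.5 and 48.7 CPM and rofecoxib 54.8, 52.8, 54.03, 57.6 and 55.6 CPM. The rofecoxib libraries were close together, with an SD of 1.77 CPM, near the low end of the vehicle range. Rofecoxib 1, 4 and 5 lay inside that range, and rofecoxib 2 and 3 just under it. The log2 fold changes were -0.35 ± 0.111 (adjusted p = 0.276) and -0.27 ± 0.111 (adjusted p = 0.896).

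Ndufs8 (chr19:3908668-3912919) holds a pair of iron-sulfur clusters on the same path. In vehicle it had 42.6, 36.9, 33.7, 44.2 and 50.7 CPM, in celecoxib 34.4, 30.8, 31.7, 38.1 and 28.4 CPM and in rofecoxib 33.96, 30.2, 33.4, 35.4 and 32.2 CPM. Vehicle 3 was the lowest control and stood under celecoxib 1 and 4. The fit gave -0.35 ± 0.102 (adjusted p = 0.275) for celecoxib and -0.33 ± 0.102 (adjusted p = 0.896) for rofecoxib. Over the 6 core genes the median ratio was 0.788 under celecoxib and 0.805 under rofecoxib, and each of the 6 stood lower at an unadjusted p under 0.05 in both. For the 30 accessory genes the medians were 0.841 and 0.843, with 20 and 24 lower at that threshold. Of all genes 7.18% and 3.71% were lower at it. Whether core and accessory genes differed was not tested.

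Among the 15 matrix arm genes the median ratio was 0.840 under celecoxib and 0.817 under rofecoxib. At an unadjusted p under 0.05, 12 and 13 were lower, beside 7.18% and 3.71% of all genes. Ndufa9, an accessory subunit at the base of the arm, stood at 0.811 and 0.825 of vehicle. Ndufs4 and Ndufs6, accessory subunits needed for late assembly, stood at 0.814 and 0.840 under celecoxib and at 0.844 and 0.814 under rofecoxib. Ndufa12 stood at 0.849 and 0.809, Ndufa6 at 0.857 and 0.854, Ndufa7 at 0.887 and 0.887 and Ndufv3 at 0.883 and 0.917. Ndufa7 missed the unadjusted threshold in both comparisons.

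Ndufa5 (chr6:24468464-24478215), an accessory subunit of the quinone part, was 1 of the 4 genes of smallest p under rofecoxib. Its vehicle values were 35.2, 32.5, 33.05, 36.3 and 41.5 CPM, with 35.1, 29.6, 33.1, 34.4 and 26.3 CPM in celecoxib and 31.7, 27, 30.7, 30.1 and 26.02 CPM in rofecoxib. The rofecoxib libraries all stood under the lowest vehicle library, while 3 of 5 celecoxib libraries lay within the vehicle range. The log2 fold change was -0.30 ± 0.0895 (adjusted p = 0.896) for rofecoxib and -0.17 ± 0.0893 (adjusted p = 0.450) for celecoxib.

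Ndufab1 (chr7:129228715-129245602) is the mitochondrial acyl carrier protein, which takes part in fatty acid synthesis inside mitochondria and is built into both arms. It stood at 62.5, 54.3, 62.1, 72.2 and 85.2 CPM in vehicle. The celecoxib libraries held 52.7, 42.1, 53, 61.2 and 46.1 CPM and those of rofecoxib 58.4, 48.8, 52.5, 50.4 and 49.6 CPM. Vehicle 2 was low and overlapped with both treated groups. The log2 fold changes were -0.40 ± 0.116 (adjusted p = 0.275) and -0.37 ± 0.116 (adjusted p = 0.896).

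In the proximal membrane arm the 9 genes had median ratios of 0.835 and 0.845. At an unadjusted p under 0.05, 7 and 8 were lower, beside 7.18% and 3.71% of all genes. Ndufa3 (chr7:3568773-3571967), a small accessory membrane subunit, had the smallest p of the set under rofecoxib. It held 43.8, 40.6, 41.2, 49.4 and 55.03 CPM in vehicle, 39.6, 34.05, 39.7, 42.04 and 33.3 CPM in celecoxib and 36.7, 36.5, 37.8, 37.1 and 37.5 CPM in rofecoxib. The 5 rofecoxib values lay within a very narrow band, all below vehicle. The fit gave -0.29 ± 0.0848 (adjusted p = 0.275) and -0.31 ± 0.0848 (adjusted p = 0.896).

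Ndufa10 (chr1:94335385-94370639), an accessory subunit on the matrix face of this arm with a nucleoside kinase fold, had the lowest ratio to vehicle of the 36 in both comparisons, at 0.727 and 0.727. Vehicle libraries held 98.2, 76.2, 87.7, 101 and 129 CPM, celecoxib 86.4, 54.97, 64.7, 92.3 and 59.4 CPM and rofecoxib 82.5, 65.2, 75.5, 67.7 and 66.7 CPM. The celecoxib libraries ran from library 2 at the bottom to library 4 inside the vehicle range. The log2 fold changes were -0.46 ± 0.156 (adjusted p = 0.293) and -0.46 ± 0.156 (adjusted p = 0.896).
Of the other proximal genes, Ndufc2 stood at 0.813 and 0.780 of vehicle, Ndufa1 at 0.819 and 0.816, Ndufa8 at 0.835 and 0.847, Ndufc1 at 0.843 and 0.845 and Ndufs5 at 0.873 and 0.868. Ndufa11, an accessory membrane subunit, stood at 0.936 and 0.927 and missed the unadjusted threshold in both.

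In the distal membrane arm, farthest from the quinone site, the 10 genes had median ratios of 0.852 and 0.849. At an unadjusted p under 0.05, 5 and 7 were lower, beside 7.18% and 3.71% of all genes. Ndufb3 (chr1:58643026-58653010), a small accessory subunit, had the smallest p of the set under celecoxib. It stood at 55.1, 54.99, 55.5, 61.2 and 68.3 CPM in vehicle, 52.6, 44.8, 45.7, 53.3 and 40.9 CPM in celecoxib and 52.4, 48.9, 49.9, 52.01 and 44.96 CPM in rofecoxib. All 10 treated libraries lay under the lowest vehicle library, and the vehicle libraries 1 to 3 were nearly equal. The log2 fold change was -0.31 ± 0.0812 (adjusted p = 0.269) for celecoxib and -0.25 ± 0.0811 (adjusted p = 0.896) for rofecoxib. The Ndufb3 span overlaps the row of Fam126b, which has a similar count.

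Ndufb8 had the second lowest ratio under celecoxib, 0.744, and 0.759 under rofecoxib. Its neighbours in the arm, Ndufb5, Ndufb6 and Ndufb9, stood at 0.763, 0.793 and 0.819 under celecoxib and at 0.786, 0.820 and 0.822 under rofecoxib. Ndufb10 and Ndufb11 stood nearer to vehicle, at 0.887 and 0.896 under celecoxib and at 0.874 and 0.857 under rofecoxib. Ndufb10 overlaps the span of Rps2, a ribosomal protein gene with far more counts.

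The genes of largest p were also distal. Ndufb7 (chr8:86090368-86095727), an accessory subunit on the intermembrane space side, had 59.2, 57.3, 46.6, 61.3 and 67.2 CPM in vehicle, 65.3, 54.4, 52.6, 60.4 and 48.6 CPM in celecoxib and 54.6, 55.3, 50.8, 54.96 and 52.5 CPM in rofecoxib. Its celecoxib and vehicle libraries were intermixed, and vehicle 3 was the lowest of all 15. The log2 fold changes were -0.05 ± 0.0904 (adjusted p = 0.852) and -0.12 ± 0.0904 (adjusted p = 1.0), and the former turned to 0.0076 without celecoxib 5 and to 0.0036 without vehicle 5. Ndufb7 overlaps the span of Tecr.
Ndufb4 (chr16:37647054-37654741) held 13.9, 11.2, 13.4, 13.7 and 18.5 CPM, 13.7, 11.2, 13.1, 16.03 and 11.1 CPM and 12.5, 13.2, 13.5, 12.8 and 11.3 CPM in the same order of groups. All 3 groups overlapped, and vehicle 5 was the highest of the 15. The fit gave -0.12 ± 0.125 (adjusted p = 0.747) and -0.16 ± 0.125 (adjusted p = 1.0).

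Ndufa4, whose protein is now counted with complex IV, stood at 0.809 and 0.787 of vehicle. Without it the median of the remaining 35 was -0.26 under celecoxib and -0.28 under rofecoxib.

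**Figure D3:**
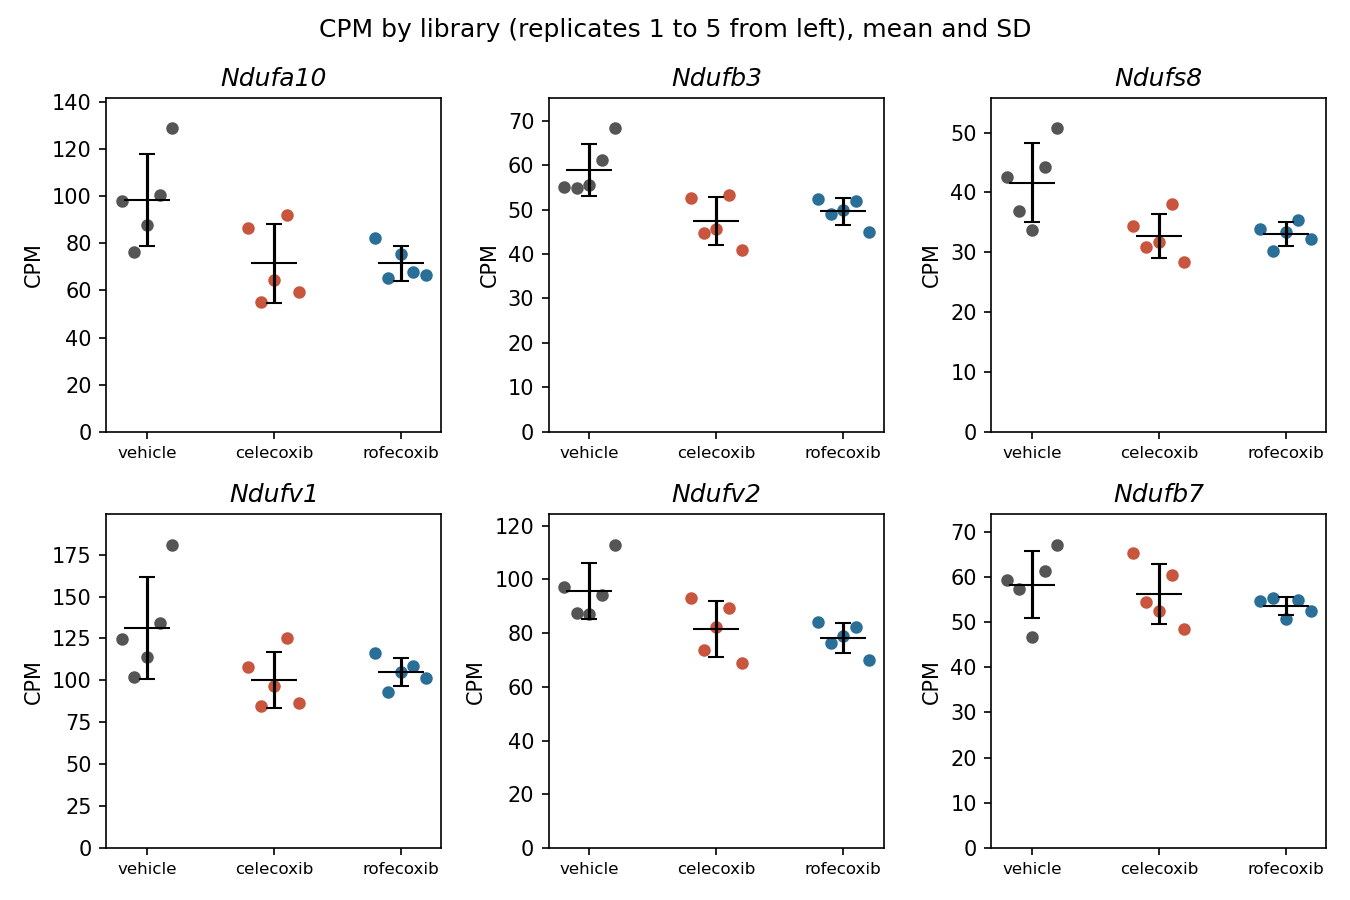
Each point is a library's CPM for Ndufa10, Ndufb3, Ndufs8, Ndufv1, Ndufv2 and Ndufb7, with replicates 1 to 5 from left in each group; the long line is the mean and the bar 1 SD. Of the 6, Ndufb3 is the gene whose treated libraries all lie under vehicle, and Ndufb7 the one whose celecoxib and vehicle libraries mix.

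Per transcript length, the genes of one complex did not share one level. The vehicle mean per kilobase ran from 14.6 CPM for Ndufb4 and 15.1 for Ndufb2 to 160 for Ndufb9 and 166 for Ndufa6. Ndufa4, now counted with complex IV, stood at 332. The core genes lay between 42.5 CPM per kb for Ndufs8 and 85.9 for Ndufv1. Lengths are medians over annotated protein-coding transcripts of an annotation on another build, so these levels are approximate, most of all for genes with long minor transcripts such as Ndufb2 and Ndufab1.

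The genes varied together from library to library. Vehicle 5 was the highest of the 15 libraries for 35 of 36 genes, and vehicle 1 for Ndufv3. Vehicle 4 was among the 3 highest for 33. At the other end celecoxib 5 was the lowest for 26 genes and celecoxib 2 for 7, and rofecoxib 5 was among the 3 lowest for 16. The mean log2 CPM over the 36 genes lay between 5.73 and 6.18 in vehicle, 5.45 and 5.86 in celecoxib and 5.57 and 5.73 in rofecoxib. So each rofecoxib library lay below every vehicle library on that mean, by a small margin for the closest pair, while celecoxib 1 and 4 lay inside the vehicle range. The SD over libraries was 0.185 in vehicle, 0.180 in celecoxib and 0.0663 in rofecoxib.

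Fat cell markers varied with these genes across the libraries, and their part in the group differences was examined only through the covariate fit that follows. Summed adipocyte markers were 4221 to 9265 CPM in vehicle, 2501 to 5589 in celecoxib and 3235 to 6908 in rofecoxib, with 26 of 26 detected in every library. Their median ratio to vehicle was 0.529 under celecoxib (22 of 26 negative) and 0.694 under rofecoxib (25 of 26 negative). Ucp1, the uncoupling protein of brown fat, held 274, 165, 387, 444 and 996 CPM in vehicle, 146, 6.63, 73.4, 243 and 37.8 in celecoxib and 217, 60.9, 176, 132 and 85.1 in rofecoxib. Vehicle 5 and vehicle 4, the highest for complex I, were also the highest for the adipocyte mean, and celecoxib 2 was the lowest for it. Smooth muscle markers had a median ratio of 1.07 in both comparisons, and endothelial markers 0.866 and 0.822. In bulk tissue fewer cells of a type and less RNA per cell cannot be told apart.

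When the fit also held the mean log2 CPM of the 26 adipocyte markers, the median of the 36 was -0.02 under celecoxib, with 25 negative, and 0 stood lower at an unadjusted p under 0.05, beside 3.29% of all genes. Under rofecoxib the median was -0.12, with 35 negative, and 12 stood lower, beside 1.55% of all genes. The genes farthest below vehicle in that fit were Ndufa3 and Ndufs8 at -0.19 each and Ndufa10 at -0.19 under rofecoxib. Under celecoxib Ndufv3 was lowest at -0.14 and Ndufb4 highest at 0.15. No gene of the set passed the threshold over all genes in that fit. The adipocyte mean itself was 6.42 ± 0.519 in vehicle, 5.48 ± 0.632 in celecoxib and 5.86 ± 0.436 in rofecoxib (log2 CPM, SD, n = 5), so the covariate is not independent of the groups.

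**Figure D4:**
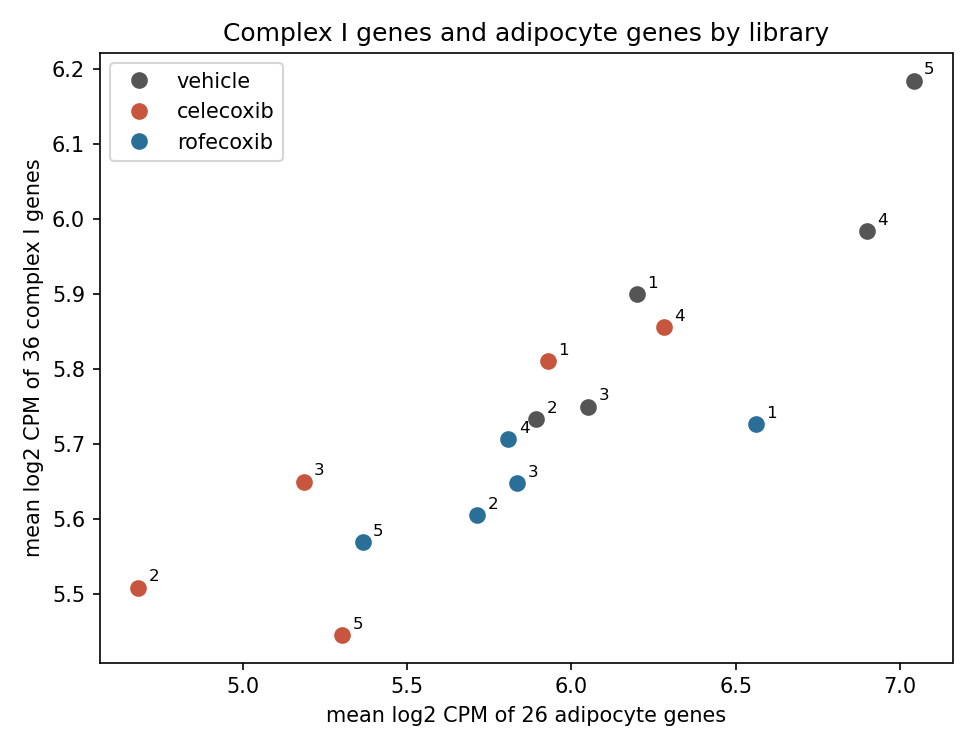
Each point is 1 of the 15 libraries, with the mean log2 CPM of 26 adipocyte genes on the horizontal axis, that of the 36 complex I genes on the vertical axis, and the replicate number beside it. Vehicle 5 lies highest on both, and rofecoxib 1 lies at 5.73 for complex I with an adipocyte mean of 6.56.

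**Figure D5:**
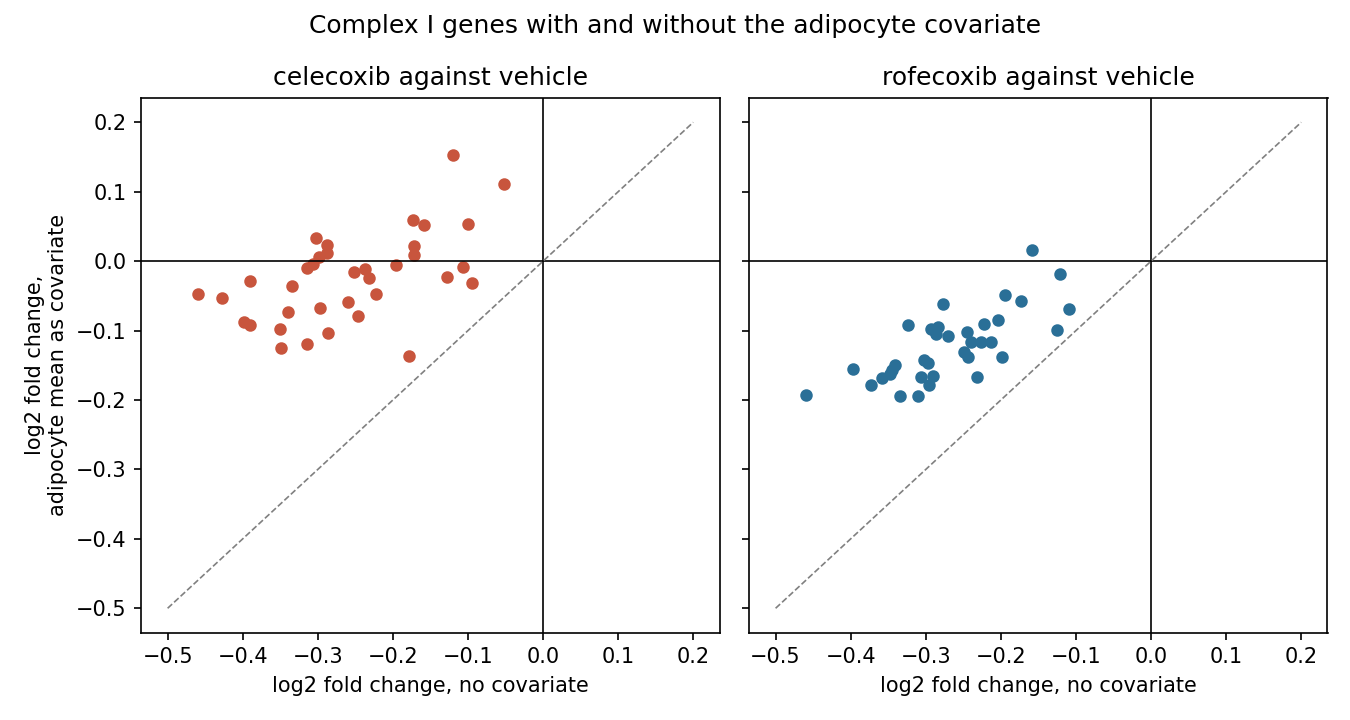
Each point is 1 of the 36 genes, with its log2 fold change against vehicle without a covariate on the horizontal axis and with the adipocyte mean as a covariate on the vertical axis; the dashed line marks equal values. Celecoxib points spread around 0 on the vertical axis, and those of rofecoxib lie mostly between -0.19 and 0.

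Between the compounds, whose doses differ, the median difference of the set was near 0 in the fit without a covariate. This log2 difference, celecoxib minus rofecoxib, was 0.0047, 15 of the 36 were negative (48.2% of all genes), and 0 stood lower or higher at an unadjusted p under 0.05, beside 2.91% and 4.05% of all genes. edgeR's quasi-likelihood test called 0 of the 36 after adjustment, and 0% of all genes. DESeq2 called 0 of the 36 and 20 of the 12782 genes it adjusted, and limma-voom called 0 of the 36. The 95% intervals of the 36 lay within -0.37 to 0.33, that is 0.776-fold to 1.26-fold, and differences inside that range remain possible.
The 4 genes of smallest p were all nominally higher with celecoxib. They were Ndufa5 at 0.12 ± 0.0895 (SE, adjusted p = 0.786), Ndufa13 at 0.10 ± 0.0773 (adjusted p = 0.788), Ndufb2 at 0.09 ± 0.0676 (adjusted p = 0.788) and Ndufa2 at 0.11 ± 0.0895 (adjusted p = 0.803). Ndufa13, also known as GRIM-19, held 76.98, 72.6, 74.99, 76.4 and 61.05 CPM in celecoxib and 66.9, 68.3, 63.2, 69.8 and 68.5 CPM in rofecoxib, beside 82.95, 72.9, 67.3, 83.2 and 89.2 CPM in vehicle. Celecoxib 5 lay apart from its group and below every rofecoxib library. Ndufb2 had 32.8, 31.5, 37.5, 37.3 and 30.3 CPM and 31.4, 32.4, 31.02, 33.6 and 30.6 CPM, and Ndufa2, a small subunit of the NADH-oxidising part, 70.3, 60.9, 66.03, 66.8 and 54.7 CPM and 57.4, 64.01, 55.2, 60.3 and 57.8 CPM. The groups overlapped for each of the 36 genes, where 0.634% of all genes had celecoxib wholly below rofecoxib and 0.687% wholly above. These values changed with the adipocyte mean as a covariate. The median difference was then 0.10, beside 0.0094 over all genes, and 35 of the 36 were positive, beside 52.6% of all genes and 21 of the 36 without the covariate. At an unadjusted p under 0.05, 6 stood higher with celecoxib in that fit, beside 5.34% of all genes, and 0 lower, and 0 of the 36 were called after adjustment.

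Outside the named set Ndufa4l2, a relative of Ndufa4 that responds to low oxygen, was at 7.04 ± 0.808, 6.19 ± 1.997 and 6.51 ± 1.16 CPM in vehicle, celecoxib and rofecoxib.

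Assembly factors, which build the complex without staying in it, stood nearer to vehicle. Of 17 tested, 15 were negative under celecoxib, with a median ratio of 0.896. At an unadjusted p under 0.05, 5 were lower, beside 7.18% of all genes. Under rofecoxib 14 were negative, with a median ratio of 0.944, and 2 were lower at that threshold, beside 3.71% of all genes. Whether they differed from the subunits was not tested. The 3 of smallest p under celecoxib were Ndufaf4 at -0.37 ± 0.0779 (adjusted p = 0.252), Foxred1 at -0.24 ± 0.0797 and Ndufaf1 at -0.22 ± 0.0787. Ndufaf4 held 29.4, 31, 32.3, 33.01 and 40.6 CPM in vehicle and 23.9, 24.2, 26.7, 27.96 and 26.2 CPM in celecoxib, and these did not overlap. Under rofecoxib Ndufaf4 had -0.21 ± 0.0777, Foxred1 -0.19 ± 0.0797 and Ndufaf6 -0.32 ± 0.170, with a smallest adjusted p of 0.896.

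Regulators of mitochondrial biogenesis gave unlike values. Of 15 tested, 11 were negative under celecoxib and 12 under rofecoxib. At an unadjusted p under 0.05, 5 were lower under celecoxib, beside 7.18% of all genes, and 1 higher, Gabpb1, beside 5.35%. Under rofecoxib 1 was lower at that threshold, beside 3.71% of all genes. Esrra, the estrogen-related receptor that acts on respiratory genes, stood at 37.8 ± 8.69, 27.99 ± 3.39 and 30.9 ± 2.87 CPM in vehicle, celecoxib and rofecoxib, with log2 fold changes of -0.43 ± 0.133 (adjusted p = 0.275) and -0.29 ± 0.133 (adjusted p = 0.950). The coactivators Ppargc1a and Ppargc1b had -0.61 ± 0.267 and -1.10 ± 0.397 under celecoxib and -0.47 ± 0.267 and -0.56 ± 0.391 under rofecoxib. Perm1, a muscle coregulator, had -0.64 ± 0.217 and -0.23 ± 0.215. By contrast Nrf1 had 0.10 ± 0.0622 and 0.10 ± 0.0621, Gabpa 0.01 ± 0.0613 and 0.02 ± 0.0612, and Tfam, which packages and transcribes mitochondrial DNA, -0.02 ± 0.0644 and -0.04 ± 0.0644. None passed the threshold over all genes.

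The other respiratory complexes stood in the same direction. Median ratios to vehicle under celecoxib and rofecoxib were 0.730 and 0.755 for 4 genes of complex II, 0.760 and 0.751 for 9 of complex III, 0.818 and 0.795 for 10 of complex IV and 0.864 and 0.868 for 15 of ATP synthase. At an unadjusted p under 0.05, lower members numbered 4 and 3, 9 and 9, 7 and 10, and 10 and 12 in the same order. Of all genes 7.18% and 3.71% were lower at that threshold. After adjustment 0 members were called, beside 0% of all genes. The median of complex I, 0.828 and 0.823, thus lay between those of complex IV and ATP synthase in both comparisons. These differences between complexes were not tested.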

How the data were processed

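Polyadenylated RNA of 15 thoracic aortas, 5 per group, was sequenced from libraries that the labels say were built over 3 days, but the day of each is not given, and the model holds no batch. The submitters' processing notes name CASAVA 1.8.2, STAR 2.5.2a and the build mm9. Not given in the sources used here are the counter, its use of strand and the annotation. The table the authors deposited holds whole-number counts per gene, and 0 columns were left without a sample. Library totals differed by only 0.0971%, and the labels name no step that equalised them, so the original depth is unknown.

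Genes were filtered with filterByExpr (15134 genes, 99.95% of counts), scaled by TMM and fitted in 1 edgeR 4.0.16 quasi-likelihood model (R 4.3.3) over 15 libraries with 3 contrasts, Benjamini-Hochberg adjusted over all genes, threshold 0.05. The common biological coefficient of variation was 0.228. SE is the log2 fold change over the root of F, and mean log2 CPM uses a prior count of 2. The fit was tested on simulated data. No 2 libraries of a group agreed within sampling noise. Also run were RLE, upper-quartile and no scaling, 2 other filters, DESeq2 1.42.0, limma-voom (limma 3.58.1), 10 libraries alone, a replicate block, an adipocyte covariate and leaving out each library. Figures used matplotlib 3.10.9.

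The members and lists were chosen with earlier results of these data known. Full values were given for the 6 core genes, the 4 of smallest and 2 of largest p in each comparison against vehicle, and the 4 of smallest p between compounds. The values of Ndufa10 by library and the overlapping neighbour genes were added after their values were seen. Of the pathway lists Coa1 and Ndufb1-ps were not matched to a row, and Esrrb and Cox6a2 failed the filter. Lists are described by counts and medians, with no set test.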

Additional observations from a re-analysis of the deposited data

Results flagged for a closer look

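In 3 of 108 groups of 5 libraries (36 genes in 3 groups) 1 library stood apart from the other 4 by more than 0.71 of the group's range, where chance gives about 1 in 20. Ndufa13 in celecoxib 5 was at 61.05 CPM, beside 72.6 to 76.98 CPM in the other celecoxib libraries. Ndufc1 in rofecoxib 4 was at 32.8 CPM, beside 28.11 to 29.38 CPM. Ndufs4 in rofecoxib 1 was at 37.25 CPM, beside 33.26 to 34.04 CPM.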

How the results depend on the processing

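Under other scalings and filters, limma-voom and fits of 10 libraries alone, the counts and medians of the 36 genes stayed within 1.5 times or 1 SD of the reported values in all 3 comparisons. DESeq2 called 1 of the 36 for celecoxib against vehicle in place of 0, Ndufb3 (log2 fold change -0.31, adjusted p = 0.0453). Over all genes it called 129 of the 12782 it adjusted, and the cause of the difference was not tested. With the adipocyte mean as a covariate the genes lower at an unadjusted p under 0.05 numbered 0 under celecoxib (median -0.024) and 12 under rofecoxib (median -0.12), and between the compounds 6 stood higher (median 0.10). Leaving out 1 library at a time, celecoxib against vehicle gave 13 to 28 such genes, medians of -0.32 to -0.20 and 1 to 5 genes with groups not overlapping. Rofecoxib against vehicle gave 18 to 34, -0.32 to -0.19 and 9 to 19. Celecoxib against rofecoxib gave 0, -0.04 to 0.06 and 0 to 1, and genes called after adjustment numbered 0 throughout. The counts of genes with groups not overlapping could only stay or rise when a library was left out. Ndufb7 ranged from -0.11 to 0.0076 in those fits under celecoxib and turned positive at 0.0076 without celecoxib 5 and 0.0036 without vehicle 5. The least counted gene held 11.1 CPM or more in every library. How far depth limits these results cannot be told, since the original depth is unknown. The 5 animals a group limit the intervals.

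Replicate numbers are shared between groups in the titles. With a replicate block 26 genes stood lower under celecoxib and 29 under rofecoxib, with medians of -0.27 each, and 0 were lower between the compounds, with a median of 0.0008. The correlation of deviations of same-numbered libraries was 0.196, 0.0997, 0.307, 0.775 and -0.0778 for celecoxib and vehicle, replicates 1 to 5, so 3 of 5 pairs were over 0.1. It lay between -0.702 and 0.412 for rofecoxib and vehicle and between -0.721 and 0.349 for celecoxib and rofecoxib. Since not every pair was over 0.1 in any comparison, the numbers were not taken as pairs.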

Other observations

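Of the 36 genes 16 overlap, in deposited coordinates, another row that averaged 100 counts or more, and reads may have been split between them. The median log2 fold change of these 16 was -0.23 in celecoxib and -0.24 in rofecoxib, and of the 20 without such a neighbour it was -0.27 and -0.29. Of the listed muscle and brown fat isoforms of cytochrome c oxidase, Cox6a2 failed the filter on low counts. The 2 tested, Cox7a1 and Cox8b, stood farther below vehicle than the complex I genes. Their median ratio was 0.403 under celecoxib and 0.420 under rofecoxib. After adjustment edgeR's quasi-likelihood test called 0 of the 2, beside 0% of all genes, with smallest adjusted p of 0.332 and 0.913. Cox8b held 70.4, 40.4, 53.8, 75.3 and 115 CPM in vehicle 1 to 5 and 40.4, 4.25, 24.6, 58.5 and 12.7 CPM in celecoxib. In rofecoxib 1 to 5 it held 48.6, 20.8, 41.6, 28.8 and 18.8 CPM, and both treated groups overlapped with vehicle for Cox8b. The Cox7a1 libraries of rofecoxib all lay below those of vehicle, beside 0.72% of all genes, while those of celecoxib overlapped with vehicle.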
